A study of Homo sapiens with 12 samples.

Results

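The comparison described here follows BE(2)-C cells, a MYCN-amplified human neuroblastoma cell line, between 24 h and 48 h after they received a plasmid that expresses GRHL1. It rests on the 2 GRHL1 arrays taken at 48 h set against the 2 GRHL1 arrays taken at 24 h, 4 of the 12 arrays of the series, and on all 12323 genes detected on the series. In every group the cells were transfected with 2 µg of plasmid by the lipid reagent Effectene and grown in DMEM with 10% FBS and 1% non-essential amino acids. The GRHL1 groups carried pTRex-GRHL1 for 24, 48 or 72 h, and the empty-vector groups carried pTRex-Dest30 for the same times, with 2 arrays per plasmid and time. RNA was measured on Illumina BeadChips, whose bead-bound probes report the brightness (intensity) of labelled cRNA. The labels do not say whether the 2 arrays of a group came from separate cultures, so each p-value reflects the scatter of these samples alone, which may be technical. All cells were of 1 line, and the sources used here do not give the share of cells that took up the plasmid.

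GRHL1 is a transcription factor of the Grainyhead family, which binds DNA as a dimer at sites close to AACCGGTT and is best known for driving epithelial junction genes in skin and other surface epithelia. In neuroblastoma, a tumour of the sympathetic nervous lineage, it has been described as a gene with tumour-suppressing activity. A plasmid introduced by transient transfection is not copied with the genome, and its expression usually passes through a peak and then declines. The cells also pass through the stress of the transfection itself, so the empty-vector arrays at the same 2 times show what time after transfection alone does.

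The cells carried the markers of their line. All 14 neuroblastoma markers on the array were above the detection limit, an intensity of 123.7, on all 4 GRHL1 arrays, and their summed intensity was 95893 and 98851 at 48 h, against 95127 and 96086 at 24 h. Of the markers of other cells, 8 of 10 Schwann cell markers, 5 of 11 keratinocyte markers, 6 of 15 leukocyte markers and 3 of 15 fibroblast markers were above that limit on none of the 4 arrays. Others of these markers were above it on all 4 arrays, namely 1 Schwann cell, 3 keratinocyte, 4 leukocyte and 7 fibroblast markers. THY1, a fibroblast marker that neurons also carry, averaged 2312 at 48 h, against 2166 at 24 h, and DCN, a matrix proteoglycan of fibroblasts, 792 against 956. CD68, a macrophage marker, averaged 480 at 48 h, against 502 at 24 h, whereas PTPRC, carried by all leukocytes, was below the limit in both groups. The summed fibroblast markers read 6522 and 6581 at 48 h, against 6414 and 6891 at 24 h, and the summed leukocyte markers 2207 and 2249 at 48 h, against 2296 and 2261 at 24 h. The part of such cells in the results was not tested. In RNA from whole cultures, fewer cells of a type and less RNA per cell cannot be told apart. Between 17950 and 19427 of 47323 probes were detected per array, and replicate arrays correlated at 0.992 over genes in the GRHL1 48 h group and in the GRHL1 24 h group.

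The 2 deposited tables disagree about which array is which. The normalized table, used throughout, and the scanner table hold the same arrays, but 7 of 12 columns carry another name in the scanner table. The columns named GRHL1 48 h replicate 1 and 2 in the normalized table are named GRHL1 72 h replicate 2 and empty vector 48 h replicate 2 in the scanner table, while both GRHL1 24 h columns have the same name in both tables. At the GRHL1 probe, the columns named GRHL1 48 h read 6225 and 4669 under the normalized table's names and 97.8 and 104.6 under the scanner table's names. Only under the first set of names do all arrays labelled with the GRHL1 plasmid carry the GRHL1 signal, and this was known when that set was used. The GRHL1 probe does not tell 48 h from 72 h. At SNORD13, a gene called below, the column named GRHL1 48 h replicate 1 in the normalized table read 583. Empty vector 48 h replicate 1, which has the same name in both tables, read 556. The columns that the normalized table names 72 h read between 865 and 931. The 48 h label of replicate 1 was not tested further. The differences of the genes named below were therefore also computed under the scanner table's names.

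GRHL1 itself was lower at 48 h than at 24 h, but the difference did not pass the test. Its intensity was 6225 and 4669 on the GRHL1 48 h arrays, against 9111 and 12964 on the GRHL1 24 h arrays, so that the 2 groups did not overlap. The difference on the log2 scale was −1.02 ± 0.34 (SE, n = 2 each), with a 95% interval of −1.77 to −0.27 and an adjusted p of 0.374 (limma, Benjamini-Hochberg over all genes). At 72 h the plasmid-bearing arrays read 5968 and 5459. The empty-vector arrays read 115 and 92.3 at 48 h, against 97.9 and 123 at 24 h, all below the detection limit. The probe therefore sees the plasmid's transcript, and endogenous GRHL1 was not detectable at this signal. MYCN, the amplified oncogene of this line, read 23908 and 24638 at 48 h, against 26060 and 24861 at 24 h, which is close to the brightest probe on each array, so that this probe can show little change.

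Over all genes, few changes passed the test between these 2 times. At an adjusted p under 0.05 (limma), 12 of 12323 genes were called, or 0.0974%. Of these, 5 genes (0.0406%) were higher at 48 h: AIF1L, NAV2, GSTM2, GSTM1 and CTSH. Another 7 genes (0.0568%) were lower: HMOX1, MVD, DHCR7, CA10, NQO1, FZD9 and SNORD13. Before adjustment, 487 genes (3.95%) were higher and 726 genes (5.89%) lower at a p under 0.05. In all 12 called genes both 48 h arrays lay beyond both 24 h arrays, a separation that over all genes held for 2336 genes (19%) in the upward and 2797 genes (22.7%) in the downward direction. By size alone, 7 genes (0.0568%) were higher by at least 1 on the log2 scale and 6 genes (0.0487%) lower by at least 1. The 5 to 7 split depends on the scaling, since with each array centred on its median 6 genes were called higher and 5 lower.

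**Figure D1:**
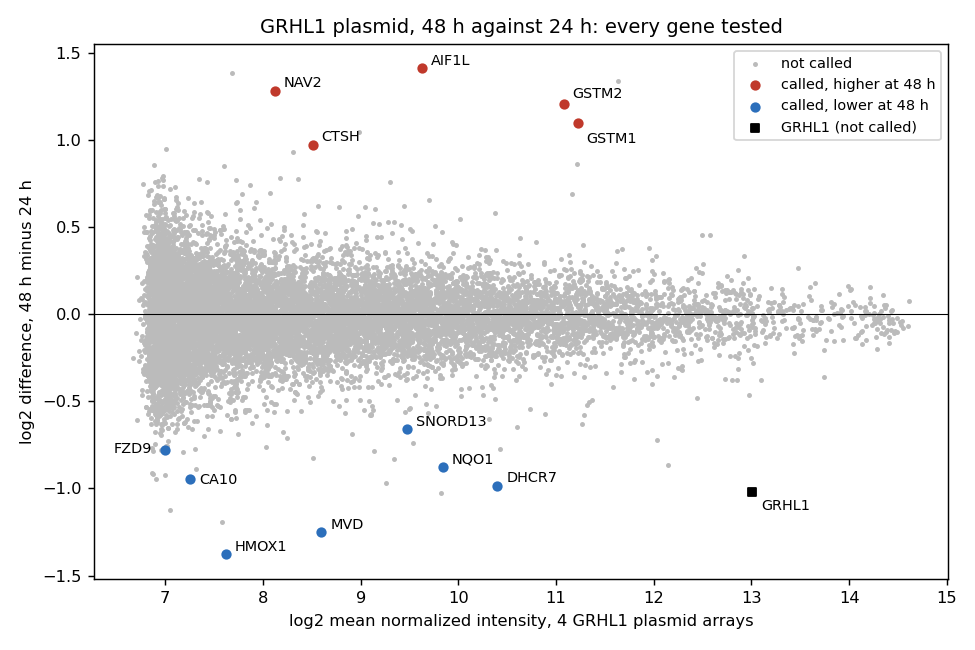
Each point is 1 of 12323 genes, with the mean log2 intensity of the 4 GRHL1 arrays across and the log2 difference of GRHL1 48 h minus GRHL1 24 h up the page. The 12 called genes are named, 5 above and 7 below the line at 0, and the median over all genes was −0.02.

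The promoters of the called genes are shown before their values. RefSeq promoter windows of 300 bases (assembly GRCh38.p14, from 250 before to 50 after the start of transcription) were held for 9 of the 12 called genes, in 14 windows counting second starts. Each was searched on both strands for 5 short motifs: AACCGGTT and its relaxed form AACNNGTT (Grainyhead), TGACNNNGC (the antioxidant response element bound by NRF2), TCACNCCAC (the sterol response element bound by SREBP) and CCAAT (bound by NF-Y, which works with SREBP at sterol genes). Windows holding each motif made up 0.134%, 3.52%, 13.3%, 1.13% and 34.6% of all 35116 windows in the table. AACCGGTT and TCACNCCAC were in none of the 9 called genes' windows, which says only that these letters are absent from these stretches. CCAAT was in windows of 5 called genes, namely NAV2, GSTM2, CA10, DHCR7 and MVD. The shares above are per window, and NAV2, CA10 and DHCR7 had second starts, so this count by gene cannot be set against them.

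The sequences below belong to the neighbouring glutathione transferase genes that were higher at 48 h and to the sterol synthesis genes that were lower, with every motif match in capitals (CCAAT on the other strand reads ATTGG) and each strand read 5′ to 3′. The GSTM2 window, chr1:109667807-109668106 on the plus strand, holds AACNNGTT and CCAAT matches. The GSTM1 window, chr1:109687567-109687866 on the plus strand, holds 1 TGACNNNGC match and begins 19760 bases from that of GSTM2. The first DHCR7 window, chr11:71448344-71448643 on the minus strand, holds 2 CCAAT matches, and the second, chr11:71448994-71449293 on the same strand, holds AACNNGTT. The MVD window, chr16:88663042-88663341 on the minus strand, holds 3 CCAAT matches.
GSTM2: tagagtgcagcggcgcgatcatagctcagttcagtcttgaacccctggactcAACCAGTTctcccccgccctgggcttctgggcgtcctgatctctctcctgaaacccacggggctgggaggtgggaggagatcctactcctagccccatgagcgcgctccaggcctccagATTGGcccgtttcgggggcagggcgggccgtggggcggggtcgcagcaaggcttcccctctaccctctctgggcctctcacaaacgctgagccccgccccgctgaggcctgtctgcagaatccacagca
GSTM1: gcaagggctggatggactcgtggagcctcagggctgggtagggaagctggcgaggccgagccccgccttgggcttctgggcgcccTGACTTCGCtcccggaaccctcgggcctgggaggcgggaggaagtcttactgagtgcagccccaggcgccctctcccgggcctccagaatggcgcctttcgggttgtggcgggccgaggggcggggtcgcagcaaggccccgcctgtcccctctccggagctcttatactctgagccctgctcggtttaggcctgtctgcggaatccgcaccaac
DHCR7 first window: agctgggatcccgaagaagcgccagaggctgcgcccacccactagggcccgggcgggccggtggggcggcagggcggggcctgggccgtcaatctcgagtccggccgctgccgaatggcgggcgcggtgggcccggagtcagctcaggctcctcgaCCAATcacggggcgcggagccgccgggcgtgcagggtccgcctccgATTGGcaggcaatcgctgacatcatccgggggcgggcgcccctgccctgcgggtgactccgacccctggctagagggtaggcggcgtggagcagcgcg
DHCR7 second window: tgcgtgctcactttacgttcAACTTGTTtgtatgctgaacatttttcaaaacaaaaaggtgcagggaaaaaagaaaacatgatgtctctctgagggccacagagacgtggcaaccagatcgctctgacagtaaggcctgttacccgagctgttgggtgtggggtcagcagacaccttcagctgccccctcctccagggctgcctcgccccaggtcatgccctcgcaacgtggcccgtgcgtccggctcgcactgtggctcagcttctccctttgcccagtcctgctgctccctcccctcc
MVD: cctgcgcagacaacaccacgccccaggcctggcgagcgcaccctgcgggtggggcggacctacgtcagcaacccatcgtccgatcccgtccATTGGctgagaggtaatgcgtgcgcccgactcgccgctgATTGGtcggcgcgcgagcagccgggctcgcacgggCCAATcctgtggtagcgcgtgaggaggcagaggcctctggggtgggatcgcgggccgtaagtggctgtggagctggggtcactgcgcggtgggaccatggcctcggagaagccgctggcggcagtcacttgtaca

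Of the 35 gene lists followed, cholesterol synthesis had the lowest median. All lists were chosen with earlier results of these data known, so their medians and counts are no independent evidence. These enzymes build cholesterol from acetyl-CoA and are transcribed together under SREBF2, a membrane-bound factor released to the nucleus when sterol runs low. Of 24 members tested, of 27 on the array and 32 listed, 2 fell past the test and 0 rose, against 0.0568% and 0.0406% of all genes. Their log2 differences ran from −1.25 to 0.258 with a median of −0.37, against −0.02 over all genes, and 20 of 24 were below 0. Both 48 h arrays were below both 24 h arrays in 17 members and above them in 1, beside 22.7% and 19% of all genes. At an unadjusted p under 0.05 (limma), 15 members were lower and none higher, beside 5.89% and 3.95% of all genes.

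MVD, mevalonate diphosphate decarboxylase, an early enzyme of the pathway, read 264 and 249 at 48 h, against 502 and 532 at 24 h. It fell by 1.25 ± 0.13 on the log2 scale, with an adjusted p of 0.00858 (limma). DHCR7, the enzyme of the last step of cholesterol synthesis, read 887 and 971 at 48 h, against 1724 and 1817 at 24 h. Its log2 difference was −0.99 ± 0.11 (adjusted p = 0.0103), and a second DHCR7 probe gave −0.87. In both genes the 48 h arrays lay near the empty-vector arrays of the same time and below all 24 h arrays. The empty-vector cells showed the same direction: MVD read 268 and 287 at 48 h, against 482 and 478 at 24 h, and DHCR7 read 844 and 851 at 48 h, against 1440 and 1384 at 24 h.

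Other enzymes of the pathway moved the same way without passing the test. HMGCS1, which makes HMG-CoA, read 2964 and 3502 at 48 h, against 5739 and 5878 at 24 h, a log2 difference of −0.86 ± 0.15 with an adjusted p of 0.089 (limma). LSS, which closes the sterol ring, read 1022 and 1048 at 48 h, against 1757 and 1684 at 24 h (−0.77, adjusted p = 0.0623). ACAT2, which joins acetyl-CoA units at the entry of the pathway, read 3056 and 3311 at 48 h, against 4905 and 5533 at 24 h (−0.72, adjusted p = 0.0606). None of these 3 genes had overlapping groups, a separation that 22.7% of all genes showed downward. The regulator INSIG1, which holds SREBP in the endoplasmic reticulum and is itself an SREBP target, differed by −0.65 (adjusted p = 0.279), and SQLE, squalene epoxidase, by −0.48 (adjusted p = 0.22). Over the same list the empty-vector arrays had a median of −0.51, with 21 of 24 members below 0 and no member called.

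Genes that answer oxidative stress moved in both directions. NRF2 is a transcription factor that accumulates under oxidants or electrophiles and switches on detoxifying and glutathione genes. Of 32 tested genes of this list, 2 rose (GSTM1 and GSTM2) and 2 fell (HMOX1 and NQO1), with a median log2 difference of −0.08, against −0.02 over all genes, of which 0.0406% rose and 0.0568% fell. Both 48 h arrays were above both 24 h arrays in 7 members and below them in 12, beside 19% and 22.7% of all genes, so the first count is near the background.

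HMOX1, haem oxygenase 1, which degrades haem, read 130 and 149 at 48 h, against 282 and 226 at 24 h. Its log2 difference was −1.38 ± 0.19 with an adjusted p of 0.0383 (limma). NQO1, a quinone reductase, read 657 and 673 at 48 h, against 1225 and 1107 at 24 h, and fell by 0.88 ± 0.11 (adjusted p = 0.0196). Both genes are classic NRF2 targets, and neither had overlapping groups, as in every called gene. Without the plasmid's GRHL1, HMOX1 read 137 and 138 at 48 h, against 213 and 205 at 24 h, and NQO1 read 567 and 563 at 48 h, against 1029 and 981 at 24 h. GCLM, a subunit of the enzyme that limits glutathione synthesis, read 382 and 389 at 48 h, against 558 and 602 at 24 h, and did not pass the test (−0.69 ± 0.13, adjusted p = 0.0985).

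**Figure D2:**
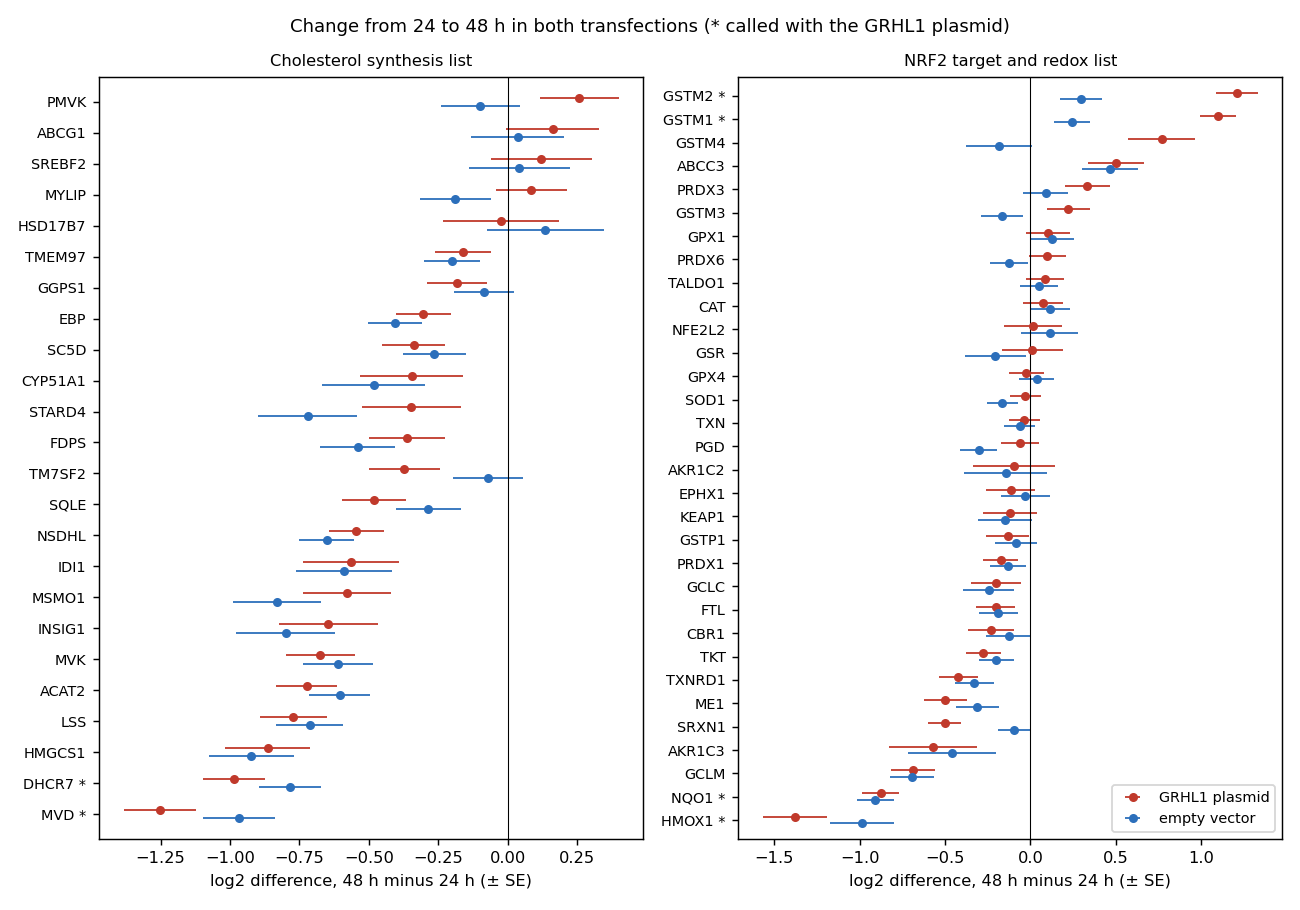
The plot gives log2 differences of 48 h minus 24 h, with standard errors as bars, for genes of the cholesterol synthesis and NRF2 lists in cells with GRHL1 plasmid and with empty vector. MVD, DHCR7, HMOX1 and NQO1 lie below 0 with both plasmids, while GSTM1 and GSTM2 lie above 1 with the GRHL1 plasmid and at 0.24 and 0.30 with the empty vector.

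The glutathione transferases of the mu class ran the other way. These enzymes couple glutathione to reactive compounds, and their genes lie in a row on chromosome 1, as the windows above show for a pair of them. GSTM1 read 3248 and 3209 at 48 h, against 1470 and 1622 at 24 h, a ratio of geometric mean intensities of 2.09. Its log2 difference after background correction was 1.10 ± 0.10, with an adjusted p of 0.00789 (limma), and its second probe gave 0.97. GSTM2 read 3206 and 2775 at 48 h, against 1319 and 1340 at 24 h (1.21 ± 0.12, adjusted p = 0.00858), and its second probe gave 0.80. Every 48 h array was well above both 24 h arrays in either gene. Members of this family are near-identical in sequence, so a probe for one may also catch cRNA of another, and the 2 calls may not be separate measurements.

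The remaining mu-class genes did not pass the test. GSTM4 read 255 and 243 at 48 h, against 164 and 184 at 24 h (0.77 ± 0.20, adjusted p = 0.247), and its groups did not overlap. GSTM3 read 223 and 251 at 48 h, against 224 and 200 at 24 h (0.22 ± 0.12, adjusted p = 0.6). With the empty vector, GSTM1 read 1416 and 1440 at 48 h, against 1224 and 1215 at 24 h, and GSTM2 read 1211 and 1252 at 48 h, against 1083 and 956 at 24 h. At 72 h the GRHL1 arrays read 3803 and 3306 for GSTM1 and 3441 and 2856 for GSTM2, close to their 48 h values.

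AIF1L had the smallest adjusted p of all genes. It encodes an actin-bundling protein of the cytoskeleton. It read 1112 and 1117 at 48 h, against 494 and 429 at 24 h, and rose by 1.41 ± 0.12 on the log2 scale, with an adjusted p of 0.00469 (limma). The ratio of geometric mean intensities was 2.42. In empty-vector cells it read 199 and 181 at 48 h, against 203 and 207 at 24 h, a difference of −0.16 (adjusted p = 0.682), and GRHL1 cells reached 1416 and 1261 at 72 h. AIF1L was already higher in GRHL1 cells than in empty-vector cells at 24 h, and higher again at 48 h, on both arrays. A second AIF1L probe was also higher at 48 h, by 0.94, and was not called when each probe was tested by itself (adjusted p = 0.209).

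The other 2 genes that rose were NAV2 and CTSH. NAV2, a neuron navigator protein that acts in neurite outgrowth, read 365 and 366 at 48 h, against 176 and 205 at 24 h (1.28 ± 0.14, adjusted p = 0.0103 by limma). Its empty-vector values were 253 and 261 at 48 h, against 158 and 176 at 24 h, a difference of 0.95, and its other 2 probes differed by 0.74 and 0.15 with the GRHL1 plasmid, so the size of the change depends on the probe. CTSH, cathepsin H, a lysosomal protease, read 453 and 468 at 48 h, against 253 and 282 at 24 h (0.97 ± 0.14, adjusted p = 0.0447). Its second probe differed by 0.29. CTSH was the only called member among 39 tested lysosome genes, whose median difference was −0.01.

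Another 3 genes fell outside the sterol and NRF2 lists. CA10, a carbonic anhydrase-related protein of neurons that lacks enzyme activity, read 121 and 131 at 48 h, against 178 and 180 at 24 h (−0.94 ± 0.10, adjusted p = 0.0103 by limma). It returned to 174 and 175 on the GRHL1 72 h arrays. FZD9, a receptor for Wnt ligands, read 112 on both 48 h arrays, against 144 and 142 at 24 h, with an adjusted p of 0.0431. Both of its 48 h arrays were below the detection limit, which makes it at least 1.15-fold lower. SNORD13, a small nucleolar RNA, read 583 and 552 at 48 h, against 890 and 825 at 24 h (−0.66 ± 0.09, adjusted p = 0.0383), and 865 and 866 at 72 h. CA10 and FZD9 are thus dim genes whose change lies close to the detection limit, and HMOX1 was also near that limit at 48 h.

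**Figure D3:**
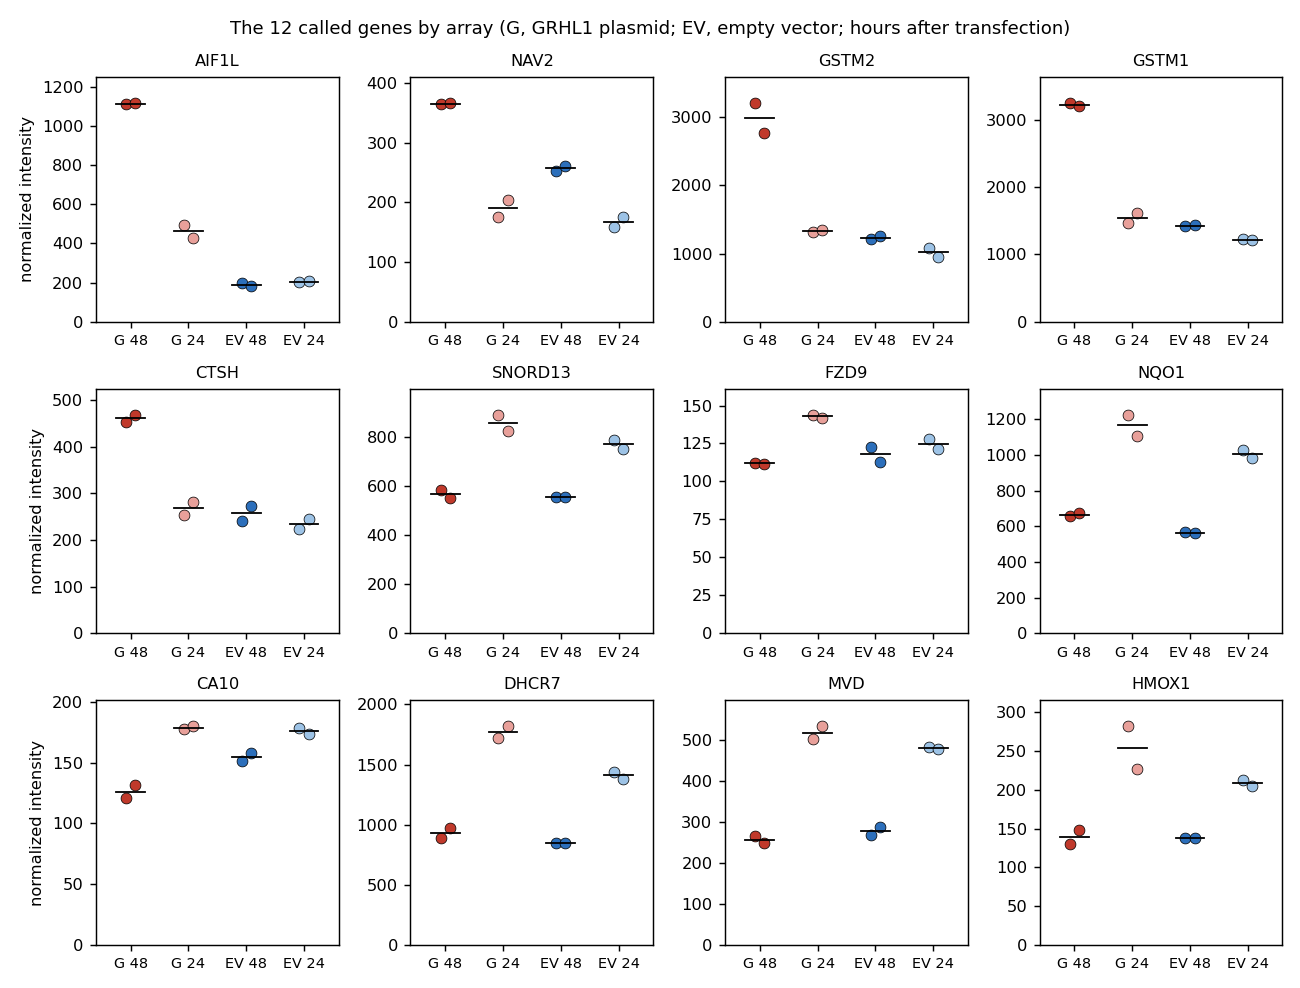
The normalized intensity of the 12 called genes is plotted for each array, with lines at the group means, of the GRHL1 48 h, GRHL1 24 h, empty vector 48 h and empty vector 24 h groups. In every gene both GRHL1 48 h arrays lie beyond both GRHL1 24 h arrays, and the empty-vector arrays of AIF1L lie between 181 and 207 at both times.

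In sign alone, most of these changes were shared by the empty-vector cells, while their sizes varied. Between 48 h and 24 h, empty-vector cells had 1 called gene (0.00811% of those tested), ATP9A, a phospholipid-transporting ATPase, which was higher at 48 h, while 809 genes (6.56%) were higher and 428 genes (3.47%) lower at an unadjusted p under 0.05. It read 281 on both arrays at 48 h, against 180 and 172 at 24 h. In GRHL1 cells ATP9A read 290 and 266 at 48 h, against 202 and 206 at 24 h, and missed the test (0.61, adjusted p = 0.0623 by limma). None of the 12 genes called with the GRHL1 plasmid was called with the empty vector, yet 11 of them differed in the same direction there, AIF1L being the exception. In FZD9 (−0.14 ± 0.11) and CTSH (0.20 ± 0.14) that difference was about as small as in AIF1L (−0.16 ± 0.12). Over all genes 6933 of 12323 were above 0 with the empty vector and 5390 below. All 7 genes that fell with the GRHL1 plasmid were also lower in sign with the empty vector.

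The difference between the 2 time courses was tested gene by gene, and 1 gene passed (0.00811% of those tested). This was AIF1L, whose 48 h minus 24 h difference was 1.57 ± 0.17 larger with the GRHL1 plasmid than with the empty vector (95% interval 1.20 to 1.94, adjusted p = 0.0412 by limma). For GSTM2 the difference between the courses was 0.91 ± 0.17, with an interval of 0.52 to 1.30, and did not pass (adjusted p = 0.619). For GSTM1 it was 0.86 ± 0.15 (interval 0.53 to 1.19, adjusted p = 0.548). These 2 intervals lie above 0 before adjustment over all genes, and neither gene can be called different between the plasmids here. The AIF1L call needs all arrays: with any 1 of the 8 arrays left out, 0 genes passed this test, although 161 to 247 genes had a larger and 408 to 729 a smaller change with the GRHL1 plasmid at an unadjusted p under 0.05. With all arrays these were 182 genes (1.48%) and 544 genes (4.41%).

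Among the genes that fell, none passed this test. The intervals of CA10, with a difference of −0.65 (−0.98 to −0.32, adjusted p = 0.667), and of FZD9, with −0.63 (−0.98 to −0.29, adjusted p = 0.719), lay below 0 before adjustment over all genes. For the sterol and NRF2 genes the interval spanned 0. It was −0.70 to 0.13 for MVD, −0.55 to 0.15 for DHCR7, −0.99 to 0.20 for HMOX1 and −0.31 to 0.38 for NQO1. For NAV2 it was −0.12 to 0.78. With the empty vector alone these 5 genes had adjusted p-values between 0.0529 (NQO1) and 0.145 (HMOX1) by limma, none of them under the threshold. A difference between the plasmids within those intervals was not detectable with 2 arrays per group.

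Genes described as responsive to GRHL1 were also followed. This list was drawn up with earlier results of these samples known, so it is no independent evidence of a direction. Of 30 tested members, 1 (AIF1L) rose and 0 fell between 24 h and 48 h, and the median difference was 0.02, with 15 members above and 15 below 0. Both 48 h arrays were above both 24 h arrays in 14 members and below them in 8, beside 19% and 22.7% of all genes, so the second count is near the background. Members that were higher at 48 h by the largest amounts, such as MGP, did so without passing the test.

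MGP, matrix Gla protein, an inhibitor of calcification, read 4837 and 4203 at 48 h, against 1554 and 2139 at 24 h (1.34 ± 0.22, adjusted p = 0.0726 by limma). It reached 8531 and 7116 at 72 h, and with the empty vector read 1008 and 1107 at 48 h, against 641 and 934 at 24 h. ALDH3B2, an aldehyde dehydrogenase of surface epithelia, read 278 and 259 at 48 h, against 143 and 144 at 24 h (1.39 ± 0.34, adjusted p = 0.233). Neither gene had overlapping GRHL1 groups. CD24, a surface glycoprotein of epithelial and neural precursor cells, read 3340 and 2750 at 48 h, against 1653 and 1742 at 24 h (0.86 ± 0.14, adjusted p = 0.0623), while its empty-vector arrays read 787 and 788 at 48 h, against 781 and 939 at 24 h. RGCC, a regulator of the cell cycle, went the other way, with 206 and 217 at 48 h, against 315 and 307 at 24 h (−0.76 ± 0.14, adjusted p = 0.0985). Under the scanner table's names MGP, ALDH3B2 and CD24 turned lower, at −0.37, −1.51 and −1.06, while RGCC kept its sign.

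**Figure D4:**
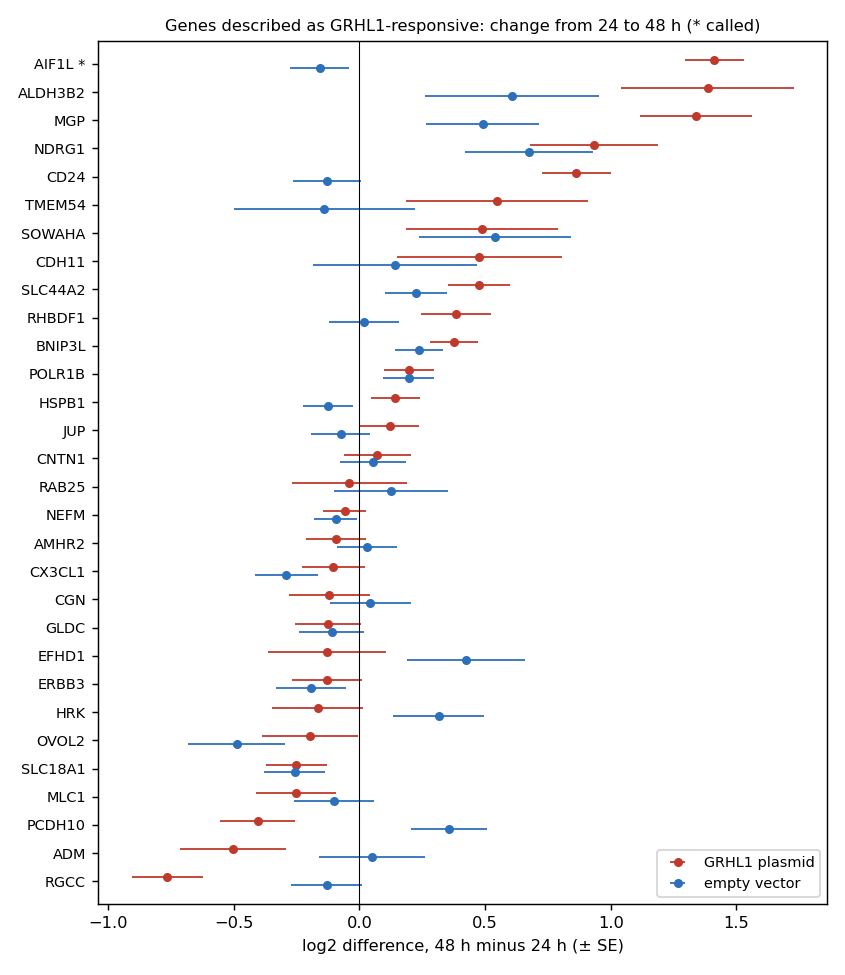
Log2 differences of 48 h minus 24 h, with standard errors as bars, are shown for the 30 tested genes described as GRHL1-responsive, in cells with GRHL1 plasmid and with empty vector. The called gene AIF1L lies at 1.41 with the GRHL1 plasmid and −0.16 with the empty vector, and 15 of the 30 genes lie below 0 with the GRHL1 plasmid.

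With 0.0974% of all genes called, lists of this size would rarely hold a call, and the epithelial genes of the Grainyhead programme held none. Of 12 tested genes of cell junctions and known Grainyhead targets, 0 passed in either direction and the median was −0.06, against 0.09 with the empty vector. The 11 tested desmosome genes had a median of 0.00 at 2 decimals and no called member.

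Genes of growth control and stress likewise held no called member, and several lists leaned one way. The immediate early genes, such as the transcription factor FOS, are switched on within minutes of a stimulus. Of 38 tested, 28 were lower at 48 h, 13 of them at an unadjusted p under 0.05, with a median of −0.15, and the empty-vector median was also −0.15. Over all genes 6634 of 12323 were lower, 726 of them (5.89%) at that p. FOS read 152 and 135 at 48 h, against 237 and 242 at 24 h (−1.19 ± 0.33, adjusted p = 0.28 by limma). KLF6, a zinc-finger factor of the same list, read 2246 and 2182 at 48 h, against 3177 and 2996 at 24 h (−0.49, adjusted p = 0.131). Targets of ATF4, the factor of amino acid and translation stress, had a median of −0.13 over 39 genes. Both 48 h arrays were below both 24 h arrays in 15 of them and above in 2, beside 22.7% and 19% of all genes. Inhibitors of the cell cycle and p53 targets had a median of −0.11 over 27 genes. Among them CDKN2B, which blocks the kinases of early G1, differed by −0.54 with the GRHL1 plasmid and by 0.42 with the empty vector, neither called, and the difference between the courses was −0.96 (adjusted p = 0.548).

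Proliferation genes were close to level. The 43 tested genes of DNA replication and the G1/S transition had a median of 0.06 with either plasmid and no called member. The 48 tested genes of mitosis had a median of 0.01 with the GRHL1 plasmid, against 0.12 with the empty vector. FOXM1, which drives mitotic genes, differed by −0.35 (adjusted p = 0.299 by limma). The 41 ribosome-building genes driven by MYC proteins had a median of −0.04.

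Genes of neuroblastoma identity held no called member. The adrenergic state is the sympathetic-neuron-like state of these tumours, held by factors such as HAND2. Its 25 tested genes had a median of 0.10, against 0.02 with the empty vector, and 19 were higher at 48 h, none past the test. Over all genes the median was −0.02 with the GRHL1 plasmid, and 5689 of 12323 were higher. RET, a receptor of glial-derived growth factors from the list of neuronal differentiation genes, read 992 and 1000 at 48 h, against 596 and 725 at 24 h (0.65, adjusted p = 0.267 by limma). TH, an adrenergic gene whose enzyme starts catecholamine synthesis, differed by −0.41 (adjusted p = 0.376). HDAC3, a histone deacetylase, read 1024 and 1113 at 48 h, against 1027 and 1002 at 24 h (0.08 ± 0.11, adjusted p = 0.866). Of 35 lists in all, 31 held no called gene, and those that did were cholesterol synthesis, NRF2, lysosome and the GRHL1-responsive genes.

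**Figure D5:**
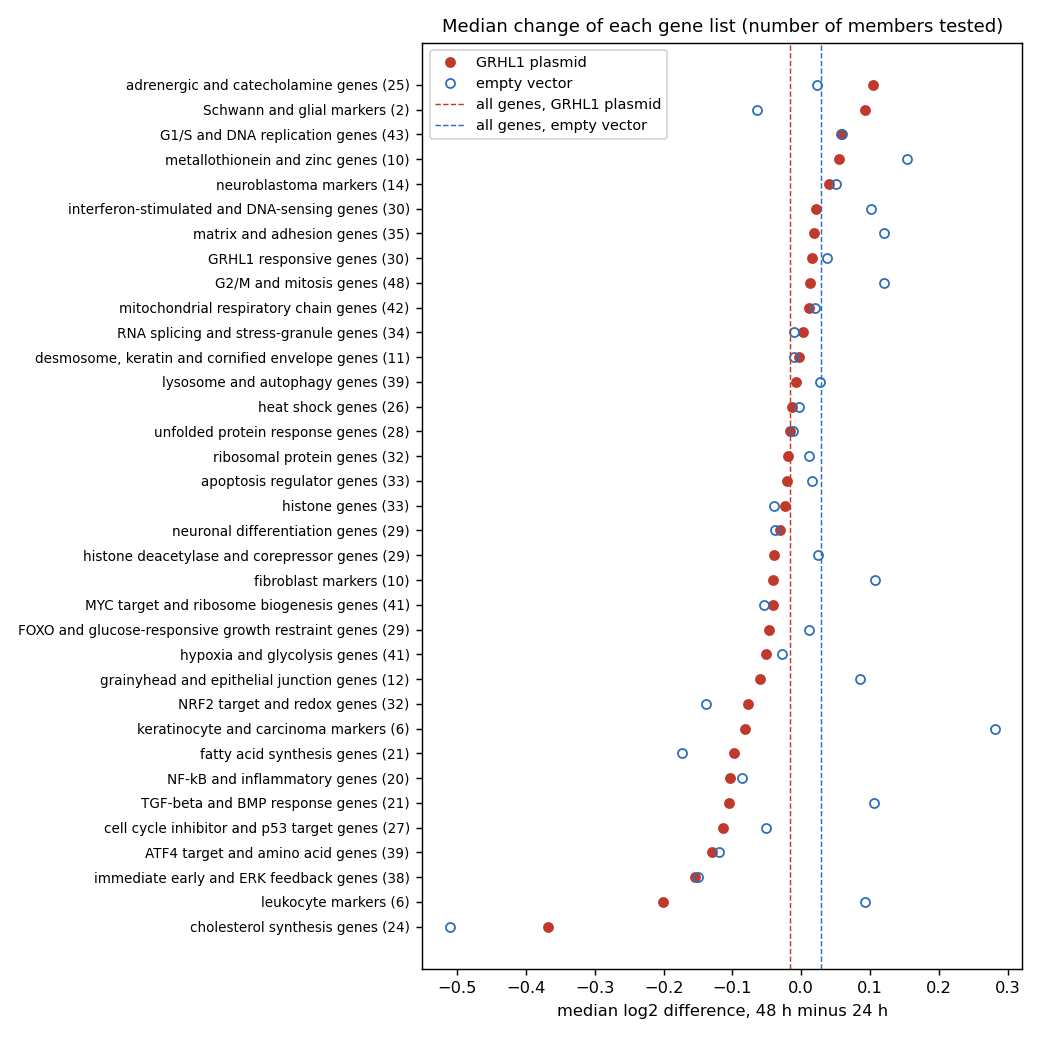
The median log2 difference of 48 h minus 24 h is plotted for each gene list, with the GRHL1 plasmid and with the empty vector. Cholesterol synthesis lies lowest with both plasmids, at −0.37 and −0.51, and with the GRHL1 plasmid all others lie between −0.20 and 0.10.

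Under the scanner table's names, all 7 genes that fell kept their direction, and of those that rose AIF1L, GSTM1 and CTSH reversed. Computed that way, the log2 difference was −1.18 for HMOX1, −1.04 for MVD, −1.10 for DHCR7 and −1.10 for NQO1. It was −1.76 for AIF1L, −0.02 for GSTM1, 0.00 for GSTM2 and −0.10 for CTSH, and 0.62 for NAV2. Among the genes named without a call, GSTM3, GSTM4, MGP, ALDH3B2, CD24, CDKN2B and MYCN also changed sign. The difference between the plasmids changed sign for AIF1L (−3.19), GSTM1 (−0.86), GSTM2 (−0.90), CTSH (−0.76), CA10 (0.44) and SNORD13 (0.21). It also changed sign for NAV2, NQO1 and MVD, and kept it for DHCR7, HMOX1 and FZD9. None of the 12 genes was called, and over all genes 0 were called (545 higher and 629 lower at an unadjusted p under 0.05, limma). The columns that the scanner table names GRHL1 48 h hold no GRHL1 signal. The normalized table names them empty vector 48 h replicate 2 and empty vector 72 h replicate 1. The scanner table's empty vector 48 h replicate 2 is GRHL1 48 h replicate 2 in the normalized table. If the normalized table's names are right, the comparison under the other names mixes plasmid with time. Signs kept or reversed there then do not test the changes. With either 48 h array left out, the calls over all genes were 0 without replicate 1 and 4 without replicate 2, and they were 1 without replicate 1 and 3 without replicate 2 of the 24 h group. The count of 0 stood beside 356 genes higher and 531 lower at an unadjusted p under 0.05.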

How the data were processed

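Gene expression was measured on 12 Illumina BeadChips of BE(2)-C cells, 2 per plasmid and time. The authors deposited a normalized table of intensity values and a scanner table of intensity values with a detection p-value per probe, per the file headers; the sources used here do not name the normalization method. The median probe read 119.7 to 121.0 on the normalized arrays, against 108.2 to 128.7 before normalization.

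The deposited normalized intensity was background-corrected with normexp (offset 16) and taken to log2. The neqc method was not used, because the deposited detection p-value was under 0.01 also for 3416 to 4076 probes per array that were dimmer than background. Probes were kept if they named 1 gene and were detected (p-value under 0.01, brighter than background) on at least 2 of 12 arrays, which left 16501 probes. Of 47323 probes, 30113 named 1 gene, 8 several and 17202 none, and 30074 of the first kind matched the RefSeq table of GRCh38.p14. The brightest probe stood for each gene, giving 12323 genes. The detection limit, an intensity of 123.7, was the 95th percentile of probes detected on no array. The 1 missing value took its probe's median. The number of arrays limits the precision.

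limma (3.58.1, R 4.3.3) fitted 6 group means over all 12 arrays with eBayes (9.72 degrees of freedom), and p-values were adjusted by Benjamini-Hochberg over all genes, with calls at 0.05. Log2 differences are of background-corrected values, so they exceed ratios of the deposited intensity values in dim genes. The code was tested on simulated data. Python 3.11.15 made the tables and figures. The files used here give no slide or scan date, so no batch could be tested.

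The genes and lists were chosen with earlier results of these data known. Named genes are all those called, those of smallest p where few were called, the GRHL1-responsive list, and the members of smallest p in each list. FOS, GCLM, GSTM3, GSTM4, HMGCS1, INSIG1 and SQLE were added after their values were seen. Alternatives covered the background correction, scaling, detection filter, choice of probe, arrays fitted, variance model, table, replicate block and leaving out each array.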

Additional observations from a re-analysis of the deposited data

Results flagged for a closer look

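AIF1L was the gene whose change over time differed between the plasmids by a test of the difference itself. Its log2 difference of 48 h minus 24 h was 1.57 larger with the GRHL1 plasmid than with the empty vector (adjusted p = 0.0412, limma). Both GRHL1 arrays at 48 h were above both at 24 h, while the empty-vector arrays differed by −0.16. Over the alternatives tried on the normalized table's names the adjusted p ran up to 0.695. The cause of the difference was not tested.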

How the results depend on the processing

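On the normalized table's names, no called gene changed direction under any alternative, but the number of calls did. For GRHL1 48 h against 24 h, with 12 genes called (5 higher, 7 lower), the count was 97 with no background correction (11 of the 12 among them), 43 with an offset of 50, 95 with a trended, robust variance and 51 for genes detected on all 12 arrays. It was 1 with no detection filter, and 0 with the 4 arrays compared alone (476 higher and 684 lower at an unadjusted p under 0.05, limma). Leaving out 1 of the 4 arrays gave 0 to 4 calls. The labels do not say whether the replicate numbers pair the samples. The deviations of replicate 1 correlated at −0.03 between GRHL1 48 h and 24 h, and at most at 0.11, between empty vector and GRHL1 at 24 h. With a replicate block, 5 genes were called for this comparison, all among the 12, and 0 for the difference between the plasmids. For that difference, with 1 gene called, 4 were called with no background correction and 4 with a trended, robust variance. It was 0 with no detection filter, with detection on 2 of the arrays compared, with the mean of a gene's probes, with every probe apart and with the arrays compared alone (over these, 183 to 390 genes larger and 538 to 741 smaller at an unadjusted p under 0.05), and from 0 to 0 with any 1 array left out. Alternatives chosen after seeing the data gave 44 calls (14 higher, 30 lower) at an adjusted p under 0.1 and, without the 72 h arrays, 8 calls for time and 0 for the difference. Under the scanner table's own names 0 genes were called in either comparison (545 higher and 629 lower for time, and 328 larger and 520 smaller for the difference, at an unadjusted p under 0.05), and of the called values 4 reversed: AIF1L −1.76, CTSH −0.10 and GSTM1 −0.021 for time, and AIF1L −3.19 for the difference. Uncalled values that changed sign there were those of MGP, ALDH3B2, CD24, GSTM3, GSTM4, CDKN2B, MYCN, ACP3, KCNG1 and SCPEP1 for time, and of GSTM1, GSTM2, CA10, NAV2, NQO1, MVD, CTSH, SNORD13 and CD24 for the difference. AIF1L was called for time in 15 of 18 alternatives, and FZD9 in 3 of 17. NAV2 (0.73, adjusted p = 0.102) and CTSH (0.63, adjusted p = 0.187) were not called on the mean of their probes. Apart from the change of names and the fewer arrays or genes fitted, the cause was not tested.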

Other observations

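Some genes lay just past the threshold in the upward direction. ACP3, an acid phosphatase of secretory cells, read 247 and 216 at 48 h, against 159 and 157 at 24 h in GRHL1 cells (0.85, adjusted p = 0.0546, limma). C7, a component of the complement attack complex, read 686 and 630 at 48 h, against 341 and 364 at 24 h (1.05, adjusted p = 0.0584). SCPEP1, a serine carboxypeptidase, read 2883 and 2741 at 48 h, against 1781 and 1760 at 24 h (0.69, adjusted p = 0.0623). KCNG1, a modifier subunit of potassium channels, read 662 and 590 at 48 h, against 436 and 426 at 24 h (0.61, adjusted p = 0.0623). None of these 4 genes had overlapping groups, a separation that 19% of all genes showed upward. They were picked by their small p on these same arrays, so the separation adds nothing to the p. All 4 differed upward in sign with the empty vector too. CD24, at the same adjusted p as the last 2, differed by −0.13 there. Under the scanner table's names ACP3 (−0.89), KCNG1 (−0.30) and SCPEP1 (−0.05) changed sign, and C7 (0.21) did not.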
